A study of Homo sapiens with 20 samples.

Results

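The genes described here are 8 markers of bile duct cells and of liver progenitors, namely SOX9, SOX4, SPP1, AGR2, CD24, EPCAM, PROM1 and CFTR. They were found as all probes of the array whose RefSeq accession carries one of these symbols, which gave 8 probes, 1 for each gene, of 42405 probes in all. Of the 22221 genes that could be tested, 5 were markers, SOX9, SOX4, SPP1, AGR2 and CD24. EPCAM, PROM1 and CFTR did not pass the filter on dim probes and are given as signals.

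The cells were HepaRG, a human hepatoma line that grows as bipotent hepatic progenitors and can give rise to both hepatocyte-like and biliary-like cells. All cultures received William's E medium with fetal bovine serum, antibiotics, insulin and hydrocortisone, and RNA was hybridised in one colour to 20 Agilent arrays, 4 for each of 5 conditions. Progenitors were collected on day 4 (D4) and committed cells on day 15 (D15), both without dimethyl sulfoxide (DMSO), the solvent used to complete differentiation. From day 15 to day 30, cells were kept without DMSO (D30 − DMSO) or with 2% DMSO (D30 + DMSO), and a last set of DMSO-treated cells was followed for 4 more days after its removal (D34 ± DMSO). As HepaRG is a single tumour-derived line, the replicates, which the study's methods call independent biological replicates, are cultures of that line and not different donors.

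Bile ducts and hepatocytes arise from a common fetal progenitor, the hepatoblast. SOX9 is the transcription factor by which the first duct cells are recognised, and SOX4 acts beside it in duct formation. In adult liver, EPCAM, SOX9, CD24 and PROM1 (CD133) also mark the ductular cells that appear after injury, whereas CFTR is the chloride channel by which mature cholangiocytes hydrate bile. SPP1 codes for osteopontin, a secreted phosphoprotein that ducts produce and that binds integrins and CD44. AGR2 codes for a protein disulfide isomerase of the endoplasmic reticulum that assists the folding of mucins.

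Levels are log2 signals scaled so that 0 is the 75th percentile of an array, and they were not compared between probes. A gene was called in a comparison of 2 conditions when limma's p, adjusted by Benjamini-Hochberg over all genes, was below 0.005 and the change above 2-fold. RNA came from whole cultures, so that fewer cells of a type and less RNA per cell cannot be told apart. Between 61.1% and 74.2% of the spots of an array were well above background, and the correlation across genes of 2 arrays of a condition was between 0.955 and 0.992. The arrays lie on 4 slides, of which slide 4, with 7 arrays, was the only one of the second scan session. The arrays of D30 + DMSO lie on slides 3 and 4 only, and differences within a slide rest on 1 or 2 arrays of each condition. All tested markers except AGR2 were well above background on the 20 arrays, and no marker was saturated on any array.

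AGR2 and SPP1 are the markers whose levels fell with DMSO and rose after its removal, and the 250 bases before their RefSeq start sites (build GRCh38.p14) are shown for this reason, with a searched motif in capitals. The SPP1 stretch lies at chr4:87975464-87975713 on the plus strand and the AGR2 stretch at chr7:16805000-16805249 on the minus strand.
SPP1: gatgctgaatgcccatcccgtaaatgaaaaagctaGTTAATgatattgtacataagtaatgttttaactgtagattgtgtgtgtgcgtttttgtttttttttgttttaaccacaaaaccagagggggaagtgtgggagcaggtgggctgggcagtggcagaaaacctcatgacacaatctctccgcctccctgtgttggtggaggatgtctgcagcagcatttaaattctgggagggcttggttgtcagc
AGR2: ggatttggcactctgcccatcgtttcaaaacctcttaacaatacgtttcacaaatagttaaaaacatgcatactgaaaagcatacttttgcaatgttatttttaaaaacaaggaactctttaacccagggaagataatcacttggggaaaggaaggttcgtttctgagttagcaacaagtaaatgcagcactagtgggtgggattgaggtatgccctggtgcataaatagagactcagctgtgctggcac

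Both strands were searched for 8 short motifs, and the share of 35116 RefSeq promoters holding each in the same window is given. These were a TATA box (TATAAA, 10.7%), RBPJ of the Notch pathway (TGGGAA, 20.8%), TEAD (GGAATG, 11.9%), SOX (ACAAAG, 13.7%), forkhead (TGTTTAC, 2.98%), AP-1 (TGACTCA, 4.20%), a half-site of HNF1 (GTTAAT, 6.23%) and a half-site of CREB (TGACG, 21.2%). The SPP1 stretch, of 44.8% GC, held the HNF1 half-site, 215 bases before the start, and no other. The AGR2 stretch, of 40.4% GC, held none of these letters. Of the 8 markers, 6 have promoters in the table, and a match of letters is a description only.

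SOX9 (NM_000346, chr17:72121020-72126416) was highest in D30 + DMSO and fell after DMSO removal. Its log2 level was -3.81, -3.62, -3.70 and -2.58 on the 4 arrays of D4 and -2.86, -2.85, -3.01 and -2.25 on those of D15. It was -2.32, -2.57, -2.65 and -2.64 in D30 − DMSO and -1.61, -1.47, -0.91 and -0.99 in D30 + DMSO. After removal it was -3.10, -3.10, -3.91 and -3.14. Each array of D30 + DMSO was above every array of the other conditions, whereas the ranges of D4 and D34 ± DMSO, and those of D15 and D30 − DMSO, overlapped. At day 30, SOX9 was 2.47-fold higher with DMSO than without it (log2 1.30, SE 0.26, n = 4 arrays each, limma adjusted p = 0.00153). Removal lowered it 4.20-fold (log2 -2.07, SE 0.26, limma adjusted p = 1.22e-05). With normexp background correction (offset 50) together with quantile normalization, called normexp below, this log2 difference was -1.14, and it remained called. The offset is added to every signal, and the mean SOX9 signal outside D30 + DMSO was only between 38.1 and 66.2 intensity units. Background correction without the offset and the quantile normalization was not tested.

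The rise of SOX9 from D15 to D30 + DMSO was 2.83-fold (log2 1.50, SE 0.26, limma adjusted p = 0.00039). This call was lost with normexp (log2 0.88) and by the methods' t-test, and its adjusted p over the alternatives lay between 5.95e-05 and 0.0125. From D4 to D15 its difference of 0.69 (log2, SE 0.26, limma adjusted p = 0.0685) was not called, and within slides it was 0.95, 0.85 and -0.05. The arrays of D34 ± DMSO were all below those of D30 − DMSO, with a log2 difference of -0.77 that was not called (SE 0.26, limma adjusted p = 0.123). The difference between the conditions of day 30 was 0.78 within slide 3 and 1.70 within slide 4, on the log2 scale. Each compares 2 arrays with DMSO to 1 array without it. This call of SOX9 was lost in 5 of the 20 fits that left out 1 array, in which the adjusted p of limma reached 0.00799, and without slide 4, where the log2 difference was 0.97 (adjusted p = 0.0154). With normexp the difference was 0.78, under 2-fold. The part of the normexp offset in the smaller SOX9 folds was not tested.

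SOX4 (NM_003107, chr6:21593751-21598619) was not called in any comparison, and its difference from SOX9 was not tested. Its log2 level was -0.66, -0.72, -1.06 and 0.10 at D4 and -1.48, -1.21, -1.20 and -0.74 at D15. It was -1.60, -1.19, -1.27 and -1.07 in D30 − DMSO, -2.00, -1.65, -1.64 and -1.33 in D30 + DMSO, and -1.91, -2.04, -2.35 and -1.56 in D34 ± DMSO. The condition means descended in that order, while each range overlapped that of its neighbour. The difference of D30 + DMSO from D30 − DMSO was -0.37 (log2, SE 0.23, 95% interval -0.86 to 0.12, limma adjusted p = 0.329). The lowest adjusted p of limma for SOX4 among the 6 comparisons was 0.0859, from D4 to D15, with a log2 difference of -0.58 (SE 0.23). Its largest log2 difference among them was -0.68, of D34 ± DMSO from D30 − DMSO (95% interval -1.17 to -0.19, limma adjusted p = 0.125). All arrays of D4 were above all those of D34 ± DMSO, a pair that was not compared.

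SPP1 (NM_001040058, chr4:87975714-87983411), covered by 10 spots on each array, rose with commitment, fell with DMSO to levels that overlapped those of D4, and rose after removal. Its log2 level was 0.88, 1.82, 1.21 and 1.06 at D4 and 2.46, 3.16, 3.18 and 2.87 at D15. It was 2.81, 2.94, 2.87 and 2.95 in D30 − DMSO and 0.54, 0.91, 1.15 and 1.83 in D30 + DMSO. In D34 ± DMSO it was 3.24, 3.02, 3.49 and 3.64. The arrays of D4 and D30 + DMSO formed a low range, from 0.54 to 1.83, that did not overlap with the range of the other 12 arrays, from 2.46 to 3.64.

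From D4 to D15, SPP1 rose 3.19-fold (log2 1.67, SE 0.25, n = 4 each, limma adjusted p = 4.72e-05), and by 1.57, 1.96 and 1.96 on the log2 scale within the 3 slides that hold both conditions. It was 3.45-fold lower in D30 + DMSO than in D30 − DMSO (log2 -1.78, SE 0.25, limma adjusted p = 4.47e-05), and removal raised it 4.73-fold (log2 2.24, SE 0.25, limma adjusted p = 2.70e-06). Within slides 3 and 4, the differences were -2.08 and -1.45 for the day 30 pair and 2.64 and 2.15 for removal. The arrays of D34 ± DMSO were all above those of D30 − DMSO by a small margin, and the difference of 0.46 (log2, 95% interval -0.06 to 0.98, limma adjusted p = 0.444) was not called.

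AGR2 (NM_006408, chr7:16791811-16804999) had the largest fitted changes of the 5 tested markers. Its log2 level was 0.49, 0.39, -0.14 and 0.07 at D4 and -0.79, -0.03, -0.11 and -0.93 at D15. In D30 − DMSO it was -0.76, -0.12, 0.05 and -0.37. In D30 + DMSO it was -4.40, -4.21, -5.06 and -5.47, and in D34 ± DMSO 0.36, 1.24, 1.67 and 1.20. In intensity units, the 4 arrays of D30 + DMSO read 18.2, 20.7, 11.6 and 8.65, where those of D30 − DMSO lay between 228 and 399 and those of D34 ± DMSO between 492 and 1225. The arrays of D30 + DMSO were far below all others, and replicates 3 and 4 of that condition, both on slide 4, were not well above background.

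AGR2 was 22.4-fold lower in D30 + DMSO than in D30 − DMSO (log2 -4.49, SE 0.31, n = 4 each, limma adjusted p = 2.42e-08). The 4 days after removal raised it 59.8-fold (log2 5.90, SE 0.31, limma adjusted p = 6.52e-10). Within slides 3 and 4, the differences were -3.55 and -4.89 for the day 30 pair, and 5.32 and 6.47 for removal. The size of these folds depends on a level near background in D30 + DMSO, as only 2 of its 4 arrays measured AGR2 above it. With normexp, the log2 difference was -2.28 for DMSO at day 30 and 3.53 for removal, and both remained called. The normexp offset of 50 is above the AGR2 signal of D30 + DMSO, between 8.65 and 20.7 intensity units. The part of the offset in these smaller folds was not tested.

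AGR2 had its highest mean in D34 ± DMSO, where every array was above those of D30 − DMSO. This difference was 2.67-fold and was not called (log2 1.42, SE 0.31, 95% interval 0.77 to 2.07, limma adjusted p = 0.00956). It was called with quantile normalization (log2 1.43), with normexp (log2 1.26) and with the replicate number as a block. Over the alternatives, its adjusted p in limma and the methods' t-test lay between 0.001 and 0.0989. The difference within slides 1, 3 and 4 was 1.18, 1.77 and 1.58. From D4 to D15, AGR2 differed by -0.67 (log2, SE 0.31, limma adjusted p = 0.140), and the arrays overlapped.

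CD24 (NM_013230, chr6:106969831-106976855), a small glycosyl-phosphatidylinositol-anchored glycoprotein, was highest in the progenitors. Its log2 level was 6.22, 6.05, 5.99 and 6.28 at D4 and 5.24, 5.53, 5.67 and 5.37 at D15. It was 5.25, 5.29, 5.37 and 4.94 in D30 − DMSO, 5.22, 5.21, 5.02 and 4.50 in D30 + DMSO, and 4.94, 4.84, 5.21 and 4.36 in D34 ± DMSO. All arrays of D4 were above all other arrays, and the conditions from D30 − DMSO on overlapped. The difference from D4 to D15 was -0.69 (log2, SE 0.19, limma adjusted p = 0.0106) and was not called. For DMSO addition it was -0.23 (95% interval -0.62 to 0.16), and for removal -0.15 (95% interval -0.54 to 0.24). CD24 has near-identical processed copies in the genome, whose transcripts this probe may also bind.

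**Figure D1:**
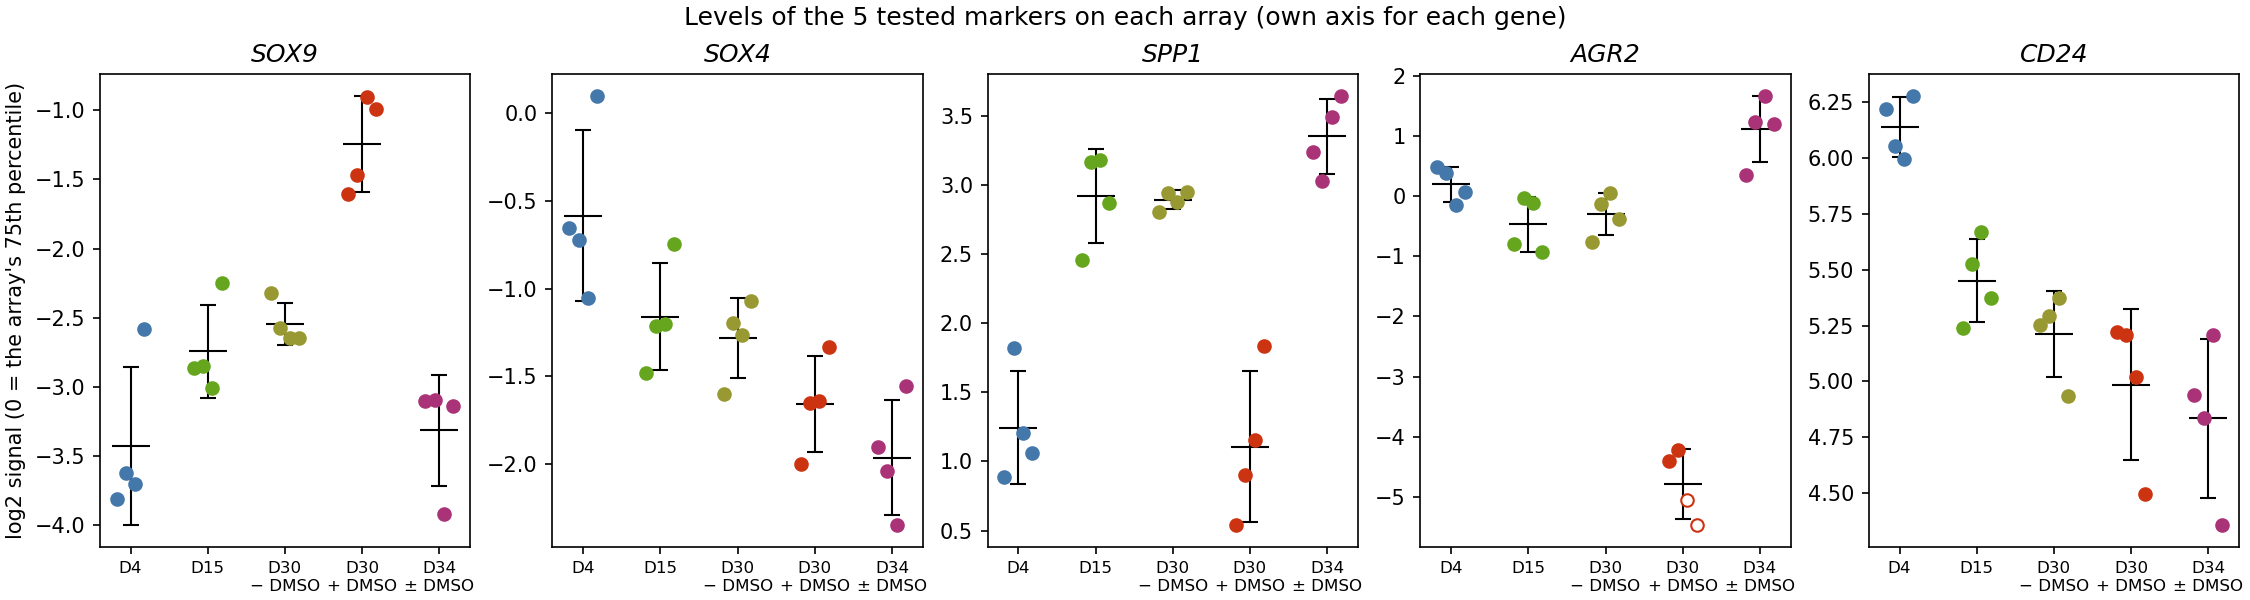
Log2 signal (0 = the 75th percentile of the array, own axis for each gene) of SOX9, SOX4, SPP1, AGR2 and CD24 in the 5 conditions, with 1 point per array, the mean and the SD of 4 arrays, and open points where the probe was not well above background. SOX9 peaks in D30 + DMSO, where AGR2 lies between -5.47 and -4.21, and SPP1 lies between 0.54 and 1.83.

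Counted over the 5 tested markers, 1 was called from D4 to D15 (SPP1, higher), where 9.50% of all genes tested were called. Between D15 and D30 − DMSO 0 were called, against 0.0135% of all genes, which is 3 genes, although 654 genes had an unadjusted p below 0.05 in limma. Between D15 and D30 + DMSO, SOX9 was called higher and SPP1 and AGR2 lower, 3 of 5 against 6.50% of all genes. The same directions were called between D30 − DMSO and D30 + DMSO, again 3 of 5 against 5.87%, and this comparison shares the arrays of D30 + DMSO with the one before. After removal 3 of 5 were called, SPP1 and AGR2 higher and SOX9 lower, against 7.05%, and this comparison too uses the arrays of D30 + DMSO. As the markers were chosen with earlier results of these data known, the counts are a description and not a test of the set. Between D30 − DMSO and D34 ± DMSO 0 were called, against 1.50% of all genes (333 genes), and 3211 genes had an unadjusted p below 0.05 in limma. The methods' t-test at the same thresholds called only AGR2 of these 3 markers for DMSO at day 30 and for removal. Its Benjamini-Hochberg adjusted p at day 30 was 0.00799 for SOX9 and 0.00937 for SPP1.

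**Figure D2:**
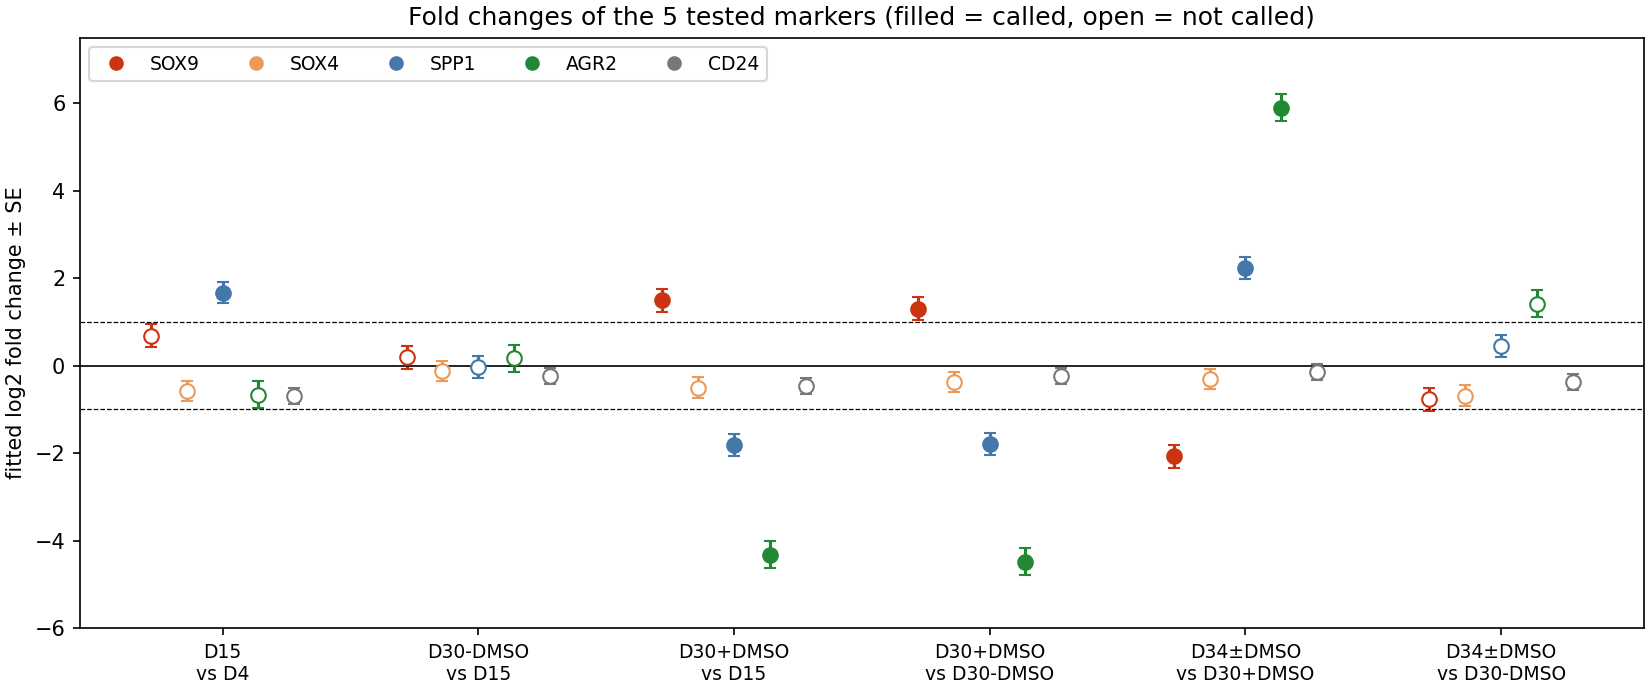
Fitted log2 fold change ± SE of the 5 tested markers in 6 comparisons of 4 arrays each, with filled points for called changes and dashed lines at a 2-fold change. SOX9 is the only marker above the upper line for DMSO at day 30, at 1.30, and AGR2 spans from -4.49 for DMSO at day 30 to 5.90 for removal.

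Over all 5 conditions, 2 of the 5 markers were called by limma's moderated F-test, which asked for p below 0.001 after Bonferroni adjustment and a range above 3-fold, against 5.31% of all genes. These were AGR2, with a 59.8-fold range between the highest and lowest mean (Bonferroni-adjusted p = 4.82e-08), and SPP1, with a 4.73-fold range (0.000573). SOX9 had a 4.55-fold range at a Bonferroni-adjusted p of 0.0210, CD24 a 2.46-fold and SOX4 a 2.60-fold range. AGR2 remained called in all 20 fits that left out 1 array, where its p reached 1.45e-06, whereas SPP1 was lost in 17 of them, where its p reached 0.00338. With the slide as a block, the p of SPP1 was 0.00141. SOX9 was called in 1 of the 20 fits. Without the 7 arrays of slide 4, none was called, with a p of 0.00826 for AGR2 and of 0.119 for SPP1.

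EPCAM (NM_002354, chr2:47369311-47387020), the epithelial adhesion molecule used to sort hepatic stem cells, had no array with a signal well above background. Its scaled signal lay between -7.45 and 2.29 intensity units over the 20 arrays and was above 0 on 2 arrays, both of D30 − DMSO. CFTR (NM_000492, chr7:117480025-117668665) likewise had none. Its signal lay between 4.04 and 8.93 at D4, between 2.03 and 5.90 at D15, between 2.86 and 4.36 in D30 − DMSO, between -1.75 and 0.323 in D30 + DMSO, and between 2.23 and 6.51 in D34 ± DMSO. The 4 arrays of D30 + DMSO were the lowest of the 20, at levels for which no fold or test is given.

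PROM1 (NM_001145850, chr4:15968228-16084023), the membrane glycoprotein CD133, was well above background on 2 arrays, replicate 3 of D15 (25.8) and replicate 3 of D30 − DMSO (36.2). Each of these means came from 1 bright spot of the 2 printed. At D15 the pair of spots read 47.8 and 3.76, and in D30 − DMSO they read -3.84 and 76.2. A further array, replicate 2 of D4, showed such a pair, at 30.6 and -0.254, without a spot well above background. The other 17 arrays lay between -4.60 and 6.28.

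**Figure D3:**
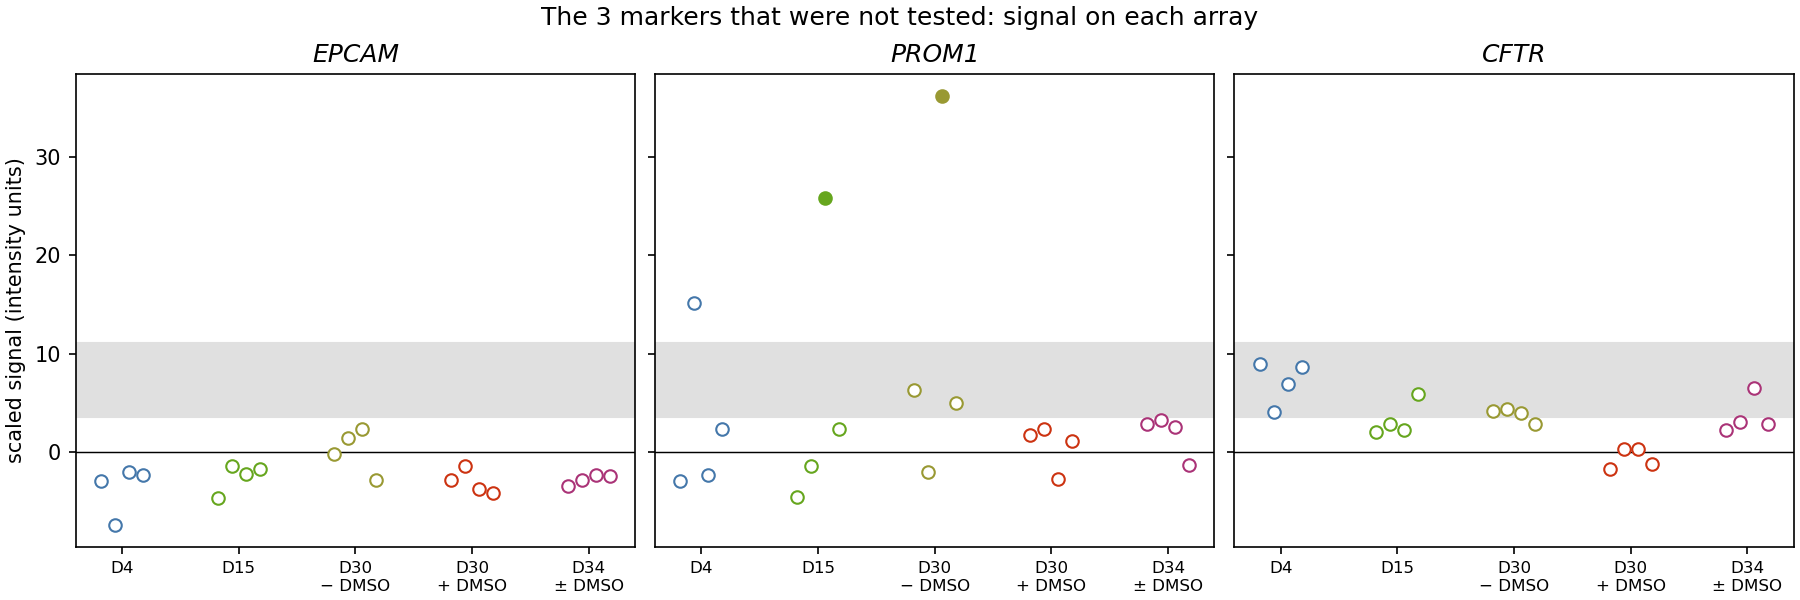
Scaled signal in intensity units of EPCAM, PROM1 and CFTR on each of the 20 arrays, with filled points where the probe was well above background and a grey band for the range over arrays of the lowest signal called so (3.59 to 11.1). EPCAM stays at or below 2.29, PROM1 has 2 filled points, at 25.8 and 36.2, and CFTR reaches 8.93 at most.

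The keratins of bile duct cells were present throughout. KRT7, of simple and ductal epithelia, had mean log2 levels between 5.08 and 5.62, and KRT19, of cholangiocytes and their progenitors, between 6.99 and 8.12, each over 4 arrays per condition. Neither was called in any comparison. Among the 6 comparisons, the largest difference of KRT19 was -0.71, from D4 to D15 (SE 0.20, limma adjusted p = 0.0112). That of KRT7 was 0.29, also from D4 to D15 (SE 0.16, limma adjusted p = 0.229). The means lay furthest apart between D4 and D30 + DMSO, a pair that was not compared. These were 8.12 and 6.99 for KRT19, and 5.08 and 5.62 for KRT7. KRT7 and KRT19 differed by less than 2-fold on average where SPP1 and AGR2 were called.

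A list of 16 other cholangiocyte markers had 12 genes tested. From D4 to D15, 4 rose and 1 fell, with a median log2 change of 0.07 against 0.02 over all genes. ONECUT1 (HNF6), a transcription factor of hepatoblasts and ducts, rose 16.5-fold (limma adjusted p = 4.93e-07), and ITGB4, a laminin-binding integrin, fell 3.66-fold (limma adjusted p = 0.000782). With DMSO at day 30, 0 rose and 2 fell (median -0.35 against 0.04), ITGB4 by 4.00-fold (limma adjusted p = 0.000674) and TSPAN8, a tetraspanin, by 2.57-fold (limma adjusted p = 0.00223). After removal 3 rose and 0 fell (median 0.23 against -0.04). These were ITGB4, 4.19-fold (limma adjusted p = 0.000401), TSPAN8, 3.47-fold (limma adjusted p = 0.000149), and MUC1, a membrane mucin, 3.60-fold (limma adjusted p = 0.00167). ITGB4, TSPAN8 and MUC1 thus rose after removal as SPP1 and AGR2 did, and no gene of this list was called in the direction of SOX9 in either comparison. ONECUT2, ONECUT1 and ELF3 differed in that direction without a call, whereas the list medians lay the other way. Their log2 differences were 0.87, 0.76 and 0.76 with DMSO, and -0.24, -0.65 and -0.95 after removal. ONECUT2 had the lowest adjusted p of these 3 with DMSO (limma, 0.00506), and at 1.83-fold it missed both thresholds.

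Among 15 other progenitor and oncofetal genes, 10 were tested, 1 rose and 3 fell from D4 to D15. PROX1, a factor of early hepatoblasts, rose 10.2-fold (limma adjusted p = 2.72e-05), and LIN28B, an RNA-binding protein that blocks let-7 maturation, fell 2.42-fold (limma adjusted p = 4.82e-06). At D4, PROX1 was well above background on 2 of 4 arrays, so the size of its fold depends on a level near background. DMSO at day 30 gave 0 calls in this list. Under the 2-fold limit, CD44 was 1.68-fold lower (limma adjusted p = 0.000635) and ALCAM 1.83-fold lower (limma adjusted p = 0.00134). LIN28B was 1.62-fold higher (limma adjusted p = 0.00361), also under that limit. Removal gave 1, CD44, a receptor of hyaluronan and osteopontin, which rose 2.11-fold (limma adjusted p = 1.27e-05). AFP, the fetal albumin-like plasma protein, was not called, and its difference after removal was 0.78 (log2, SE 0.18, limma adjusted p = 0.00346), below 2-fold.

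**Figure D4:**
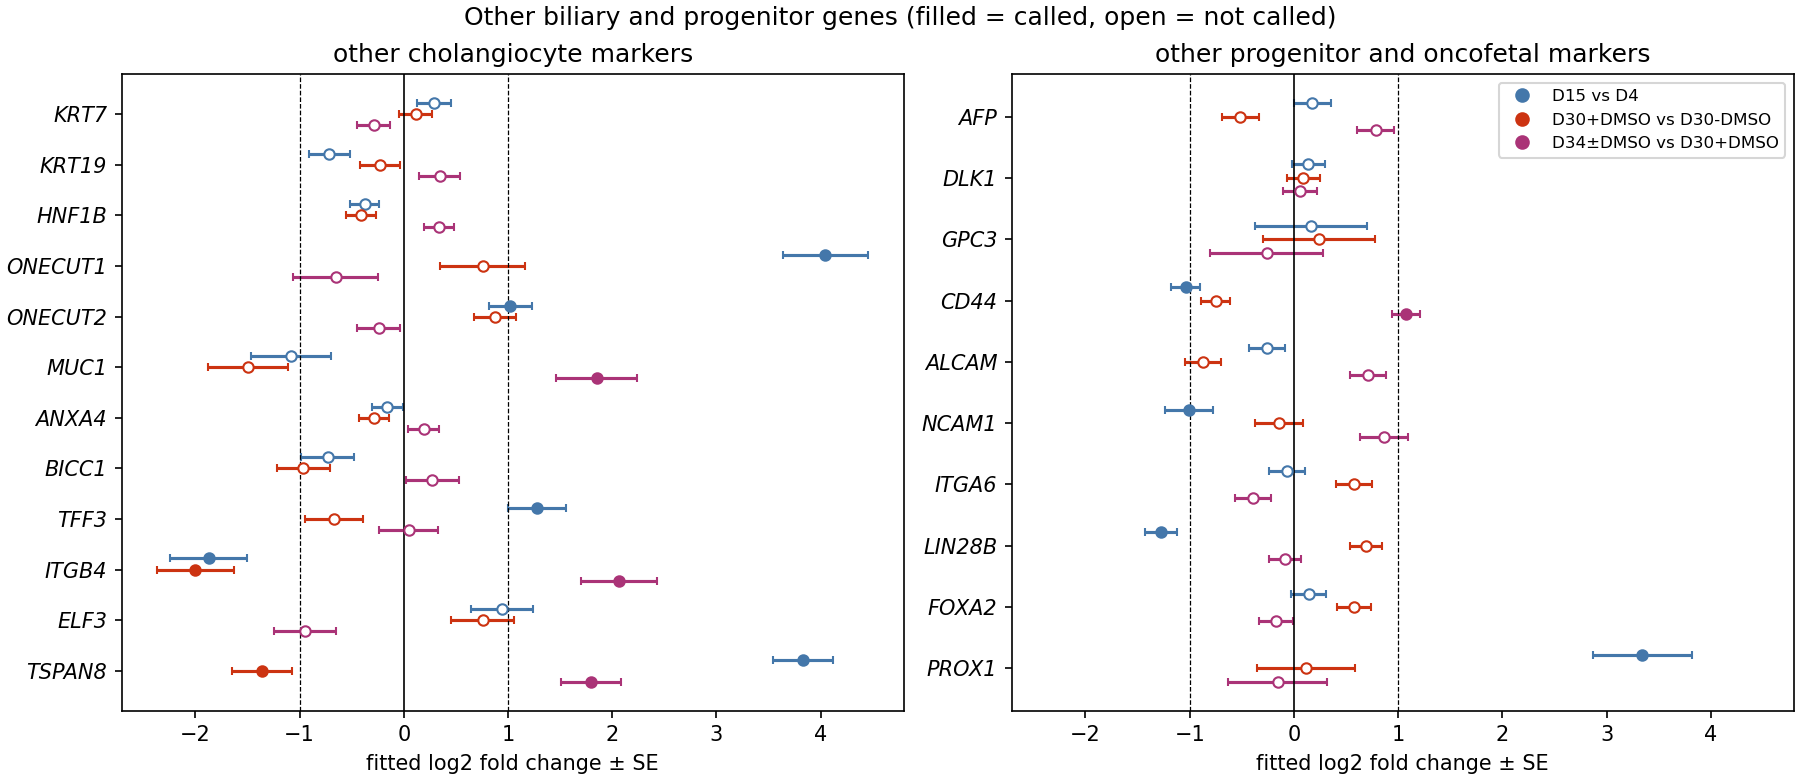
Fitted log2 fold change ± SE (4 arrays per condition) of the tested genes of the cholangiocyte and of the progenitor and oncofetal list for D15 against D4, for DMSO at day 30 and for removal, with filled points for called changes and dashed lines at 2-fold. ONECUT1, TSPAN8 and PROX1 lie far right for D15 against D4, and ITGB4 and TSPAN8 lie left with DMSO and right after removal.

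In the Notch pathway, which induces SOX9 in ducts, 11 of 15 genes were tested. JAG1, the ligand presented to hepatoblasts at the portal vein, was the only one called, 3.29-fold lower with DMSO at day 30 (limma adjusted p = 7.72e-06) where SOX9 was higher, and 2.67-fold lower in D30 + DMSO than at D15 (limma adjusted p = 5.13e-05). After removal no Notch gene was called, and JAG1 was 1.82-fold higher (limma adjusted p = 0.00421), below the 2-fold limit. HES4 also missed that limit. It was 1.73-fold lower with DMSO at day 30 (limma adjusted p = 0.000906) and 1.74-fold higher after removal (limma adjusted p = 0.000665). The median log2 change of the 11 genes was -0.18 with DMSO at day 30 and 0.30 after removal. Of 13 tested genes of the YAP and TEAD pathway, CCN1 and ANKRD1, both targets of YAP, fell from D4 to D15, CCN1 by 4.64-fold (limma adjusted p = 1.21e-05), WWTR1 (TAZ) was 2.79-fold lower in D30 + DMSO than at D15 (limma adjusted p = 0.00319), and none was called for DMSO at day 30 or for removal. Of 7 other SOX genes tested of 14, only SOX6 was called, 3.18-fold higher at D15 than at D4 (limma adjusted p = 9.30e-07).

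For the receptors of osteopontin, 8 of 9 were tested. When SPP1 rose from D4 to D15, 3 fell, ITGB3 by 4.51-fold (limma adjusted p = 1.28e-05) with ITGB1 and CD44, while ITGA8 rose at least 4.23-fold from D4, where no array had it well above background (limma adjusted p = 4.89e-08). With DMSO at day 30, ITGA8 was 3.71-fold lower (limma adjusted p = 0.000891), and after removal CD44 was the one receptor called, higher. In D30 + DMSO, ITGA8 was well above background on 2 of 4 arrays, so the size of its fold depends on a level near background. Of the listed partners of EPCAM at the cell surface, all 5 tested were called from D4 to D15. CLDN7, CLDN1, TSPAN8 and CDH1 rose, TSPAN8 by 14.2-fold (limma adjusted p = 1.33e-08), and CD9 fell 2.12-fold (limma adjusted p = 0.00351). At D4, TSPAN8 was well above background on 1 of 4 arrays, so the size of its fold depends on a level near background.

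Of 11 genes of biliary fluid secretion, the class of CFTR, 8 were tested. KCNN4, a calcium-activated potassium channel, was 5.15-fold lower with DMSO at day 30 (limma adjusted p = 0.000675) and 7.40-fold higher after removal (limma adjusted p = 7.56e-05), and none other was called in either comparison. AGR3, the nearest paralog of AGR2, stood well above background on 0 of the 20 arrays. TXNDC12, a further member of that disulfide isomerase family, was not called in any comparison, with a log2 difference of 0.18 for DMSO and 0.02 for removal.

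Listed marker genes of other cell classes were also called at these steps. All 14 hepatocyte markers rose from D4 to D15 (median log2 3.54 against 0.02), with ALB, albumin, 5.66-fold higher (limma adjusted p = 6.14e-07) and APOA2, an apolipoprotein, 45.1-fold higher (limma adjusted p = 3.58e-08). CYP3A4, a drug-metabolising enzyme, was 16.7-fold higher with DMSO at day 30 (limma adjusted p = 9.41e-09) and 90.4-fold lower after removal (limma adjusted p = 1.27e-11). APOC3 was the other hepatocyte gene called at both steps, and ALB was called at neither. Proliferation markers fell from D4 to D15, 10 of 10, and after removal 10 of 10 rose, CDK1 by 14.7-fold (limma adjusted p = 4.45e-08). Their summed signal was between 2490 and 4799 in D30 + DMSO and between 14217 and 29928 in D34 ± DMSO. In D34 ± DMSO against D30 − DMSO, 8 of the 10 were called higher, and MCM2 (log2 1.42, limma adjusted p = 0.0105) and TOP2A (log2 3.19, limma adjusted p = 0.00673) missed the threshold.

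Of 9 mesenchymal markers, 7 were tested. From D4 to D15, where SPP1 rose, LUM fell 4.93-fold (limma adjusted p = 6.47e-07) and COL1A1 3.82-fold (limma adjusted p = 0.00189). With DMSO at day 30 and after removal, 2 of the 7, DCN and LUM, both matrix proteoglycans, moved as SPP1 and AGR2 did. DCN was 7.90-fold lower with DMSO (limma adjusted p = 5.99e-06) and 7.94-fold higher after removal (limma adjusted p = 3.99e-06). LUM was 6.42-fold lower and 5.47-fold higher at these steps. The summed signal of the 7 genes was between 2071 and 2671 in D30 + DMSO, between 5709 and 11060 in D30 − DMSO and between 5955 and 11785 in D34 ± DMSO. COL1A2 and PDGFRB did not pass the filter. Of 5 endothelial markers, 3 were tested, PECAM1 and VWF did not pass, and TEK was at least 2.81-fold lower with DMSO (limma adjusted p = 1.39e-05) and at least 4.59-fold higher after removal (limma adjusted p = 1.68e-06). The other endothelial genes tested were not called and differed the opposite way, KDR by 0.42 and CDH5 by 0.33 with DMSO, and by -1.26 and -0.19 after removal (log2). The summed signal of these 3 genes was between 360 and 821 in D30 + DMSO, between 340 and 712 in D30 − DMSO and between 243 and 413 in D34 ± DMSO. Of 5 leukocyte markers 3 were tested, and CD68, a lysosomal protein, was the only one called, 2.62-fold higher at D15 than at D4 (limma adjusted p = 0.000109). These are lists of marker genes, read in a single line. Whether cells of these classes were present, and what part they had in the changes of the 8 markers, was not tested.

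The genes whose levels were most like those of each marker were ranked by Pearson's r over the 20 arrays, which share conditions and slides. They were PEG10 (r = 0.936), YPEL2 (0.934) and AMACR (0.933) for SOX9, and LRP1B (0.937), DHRS13 (0.902) and SULF1 (0.890) for SPP1. For AGR2 they were SPART (0.961), IRAG2 (0.959) and ARHGEF19 (0.954). For CD24 they were PALM (0.933), ADAMTS2 (0.927) and NFYB (0.925), and for SOX4 PRDM4 (0.943), NELL2 (0.932) and GXYLT2 (0.930). No marker was among the 3 nearest genes of another marker. The ranking kept the sign of r, so that genes moving opposite to a marker could not enter it. Among pairs of the tested markers, SOX9 and AGR2 had the strongest r, at -0.909.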

How the data were processed

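The authors deposited, for each of 20 arrays, the output of Agilent Feature Extraction (10.7.1.1 in the file headers, 10.7.3.1 in the submitters' processing notes). The deposited processed signal is an intensity, corrected for background, with no scaling from array to array, and the flags in the deposited files are 0 or 1. The deposited matrix of the authors holds log2 values relative to a baseline per probe. Its column medians lay between -0.204 and 0.171, and for the 21741 probes well above background on all arrays it matched the scaled signal apart from 1 shift per probe (median absolute difference 3.53e-07), so that its scale and direction are known and its centring is per probe.

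Spots of a probe were averaged after leaving out outlier flags, scaled to the 75th percentile of the array (between 283 and 530 intensity units per array), floored at 1 and taken to log2. A probe with at least 1 in 2 spots well above background counted as such, and was kept if it did so on each of the 4 arrays of 1 or more conditions. Each gene was read from its probe of highest mean, and 24826 of 42405 probes had a symbol through RefSeq (GRCh38.p14). Gene positions are those of that build. One model with 5 condition means was fitted to 22221 genes in R (4.3.3) with the packages limma (3.58.1) and data.table (version 1.17.8), and p-values were adjusted over all of them. Intervals of 95% use limma's moderated standard errors. The thresholds are those of the study's methods, with limma in place of its own tests, and the steps were tested on simulated data. "At least" marks a change from or to a condition in which no array measured the probe, whose level was then set to the weakest signal that Feature Extraction still accepted on each array.

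Named are the 8 markers, KRT7, KRT19, ALB and AFP, the called gene with the largest rise and fall of each gene list in each comparison, and the 3 genes most correlated with each marker. Further called genes of the lists are named where a list had few of them. The members and lists were chosen with earlier results of these data known. The number of arrays limits the precision. Other background corrections, normalizations, filters, floors, blocks and tests were also fitted. All columns of the value table belong to samples used here.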

Additional observations from a re-analysis of the deposited data

Results flagged for a closer look

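In 45 groups of 4 arrays, 5 tested markers with KRT7, KRT19, ALB and AFP in 5 conditions, a single array stood far from the other 3 in 3 groups. Chance would mark about 1 in 20 groups. SOX9 at D4 was -2.58 on replicate 4, with the others between -3.81 and -3.62. SOX9 in D34 ± DMSO was -3.91 on replicate 3, with the others between -3.14 and -3.10. AFP in D30 + DMSO was -0.38 on replicate 4, with the others between 0.24 and 0.34. Replicate 4 of D4 and of D30 + DMSO lie on slide 4, and a part of the slide in these values was not tested.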

How the results depend on the processing

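Of the fits, quantile normalization, normexp (offset 50) with quantile normalization, the authors' matrix values, a floor of 10, no filter, a filter for all arrays, every probe, blocks for slide, scan session or replicate number, only the arrays compared, the methods' tests, an adjusted p below 0.05 and each array left out in turn were tried. A fit without slide 4 was chosen after seeing the data. Counts of markers that moved are as follows. For D34 ± DMSO against D30 − DMSO, 1 marker (AGR2) in place of 0 was called with quantile normalization, with normexp, with the replicate block and at an adjusted p below 0.05, and between 0 and 1 with an array left out, the 1 being without D34 ± DMSO replicate 1 (log2 1.67, adjusted p = 0.00282). For the F-test, 1 marker in place of 2 was called with no filter, with the filter for all arrays (AGR2 then untested), with the slide as a block and by the analysis of variance, 0 without slide 4, and between 1 and 2 with an array left out. With the methods' t-test, D15 against D4 gave 0 markers in place of 1, and D30 + DMSO against D15, D30 + DMSO against D30 − DMSO and removal gave 1 each (AGR2) in place of 3. At an adjusted p below 0.05, D15 against D4 gave 2. SOX9 fell below 2-fold with normexp, at 0.78 for DMSO at day 30 and 0.88 against D15 (log2). Directions turned only for differences near 0. SPP1 between D15 and D30 − DMSO, at -0.02, was 0.0015 with the slide block, 0.043 with the session block and 0.063 without slide 4, and between -0.18 and 0.062 with an array left out. SOX4 at that step lay between -0.23 and 0.015, and CD24 for removal between -0.31 and 0.0094.

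Replicate numbers were checked as pairs. Deviations from condition means correlated with a median r of 0.256 over 40 pairs with the same number, against -0.157 for other pairs. Of the 40 pairs, 27 were above 0.1, and the lowest r was -0.309. As not every pair was above 0.1, the main fit took no pairs, and whether the numbers mark shared cultures was not tested. Replicate 4 of every condition lies on slide 4, so that replicate number and slide cannot be fully told apart. With the replicate block, 1532 genes were called for DMSO at day 30 and 1777 for removal, in place of 1305 and 1567, and between D15 and D30 − DMSO 1 in place of 3. Pairs of arrays on the same slide had a median r of 0.376, and other pairs -0.167. The lowest r of the 44 pairs on the same slide was 0.114, so all were above 0.1. The main fit nevertheless took no slide block. Fitting that block gave 1604 calls for DMSO at day 30 and 1860 for removal, in place of 1305 and 1567. Between D15 and D30 − DMSO it gave 4 in place of 3. SPP1 then lost its F-test call (Bonferroni-adjusted p = 0.00141).

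Over all genes, normexp gave 1328, 5, 794, 684 and 870 calls for D15 against D4, D30 − DMSO and D30 + DMSO against D15, DMSO at day 30 and removal, in place of 2111, 3, 1444, 1305 and 1567. The methods' t-test gave 1055, 0, 530, 531 and 460 for these and 12 for D34 ± DMSO against D30 − DMSO, in place of 333, for which only the arrays compared gave 163. An adjusted p below 0.05 gave 5201, 10, 4365, 4011, 4701 and 1009. Between D15 and D30 − DMSO, other settings gave between 0 and 7, and the F-test without slide 4 called 517 in place of 1179. Signals near background limit AGR2 in D30 + DMSO, EPCAM, PROM1 and CFTR.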
